A study of Mus musculus with 27 samples.

Results

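The complement and coagulation genes of the liver were described in 27 mouse livers, as 41 genes chosen by their symbols from the proteins of both cascades. Of the 41 genes, 37 had at least 1 probe on the Affymetrix mouse array, which holds 45101 probes, that lists the gene's symbol and no other, and all 37 were detected. C3, C4b, Cfd and Cpb2 had no such probe in the annotation used and were not analysed here. The whole array gave 6478 detected genes out of 18194 symbols. Livers came from male C57BL/6 mice that were 10 weeks old and ate their diet for 3 weeks, with 3 mice per diet and 1 array per mouse. The diets were lab chow, a high-fructose diet (60% fructose), a high-fat diet, an atherogenic diet rich in fat and sucrose with added cholesterol and cholic acid, a Western diet in which fat gave 42% of calories and which was rich in saturated fat and sucrose, an essential fatty acid (EFA)-deficient diet, a low n-3 diet (7% sunflower oil), diet restriction, and the AIN-93 purified diet, which was the control. Diet restriction was the same lab chow at 75% of the amount eaten freely, so its difference from AIN-93 includes any difference of the chow, and it was also compared with lab chow. For the low n-3 mice, the labels conflict: title and diet tag speak of a DHA supplement, the description of sunflower oil, and grouping followed the description. No source used here gives a batch or shared animals.

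Complement is a set of plasma proteins that mark and lyse microbes. C1q and the mannose-binding lectins recognize targets, serine proteases pass the signal to the convertases that cleave C3 and C5, and the terminal components C5b to C9 assemble into a pore called the membrane attack complex. Coagulation is a second protease cascade in blood, in which thrombin turns fibrinogen into fibrin, plasmin dissolves the clot, and serpins and the protein C system hold the cascade back. Hepatocytes make most of these proteins, whereas C1q comes mainly from macrophages, which in liver are the Kupffer cells.

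Values are log2 intensities, for which a difference of 1 is a doubling or a halving, and percent of control is the same difference on the linear scale. A mean above log2(100), which is 6.64, counted as detected. A gene was called when its adjusted p in limma was under 0.05. Array medians of gene values lay between 8.07 and 8.24. Of 15 hepatocyte markers, 13 were detected, whereas no marker of T and NK cells, B and plasma cells, neutrophils, cholangiocytes or pancreatic acinar cells was. Depth has no meaning for arrays, and the 3 arrays per diet limit the precision.

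Among the 37 measured genes, the terminal complement genes showed the largest change, with C6, C8a, C8b and C9 at 9.03% to 23.2% of control under diet restriction. The C1q genes had their highest means on the atherogenic diet. Any difference among the 9 diets was called for 32 of 37 genes (86.5%), against 71.6% of all detected genes. Serpinc1, F13b, F2, F7 and F9 were the others, with F7 and F9 at an adjusted p of 0.05 after rounding. The genes were chosen with earlier results of these data known, which limits this and the following comparisons with all genes. Diet restriction lowered 13 of the 37 genes relative to AIN-93, where 16.0% of all genes were lower, and raised none, where 13.5% were higher. By unadjusted p under 0.05, 27 genes differed, but the share of all genes at that threshold is not given here, so this count cannot be weighed. Against lab chow, 10 genes were lower under diet restriction, against 17.6% of all genes, and 3 higher, against 19.2%. The atherogenic diet had 4 genes higher than AIN-93, against 9.03% of all genes, and 2 lower, against 5.88%. Relative to the Western diet it had 14 genes higher, against 11.3% of all genes, and 2 lower, against 6.50%. The other diets had genes called lower and none called higher. High fructose had 8 lower, against 2.73% of all genes, and high fat 4 lower, against 3.33%. Western had 2 lower, against 4.48%, EFA-deficient 2 lower, against 2.47%, and lab chow 1 lower, against 2.19%. The low n-3 diet had 0 calls by limma, against 1.07% of all genes, and 0 by Dunnett's test. On this diet 1 gene, Serpind1, had an unadjusted p under 0.05 in limma, a count that likewise cannot be weighed. All 8 comparisons with AIN-93 share its 3 arrays. The median difference of the 37 genes was -0.34 under diet restriction, -0.20 on high fructose, -0.18 on high fat, -0.17 on Western, -0.16 on EFA-deficient, -0.15 on lab chow, 0.00 on low n-3 and 0.08 on the atherogenic diet. The corresponding medians of all genes lay between -0.05 and 0.03.

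**Figure D1:**
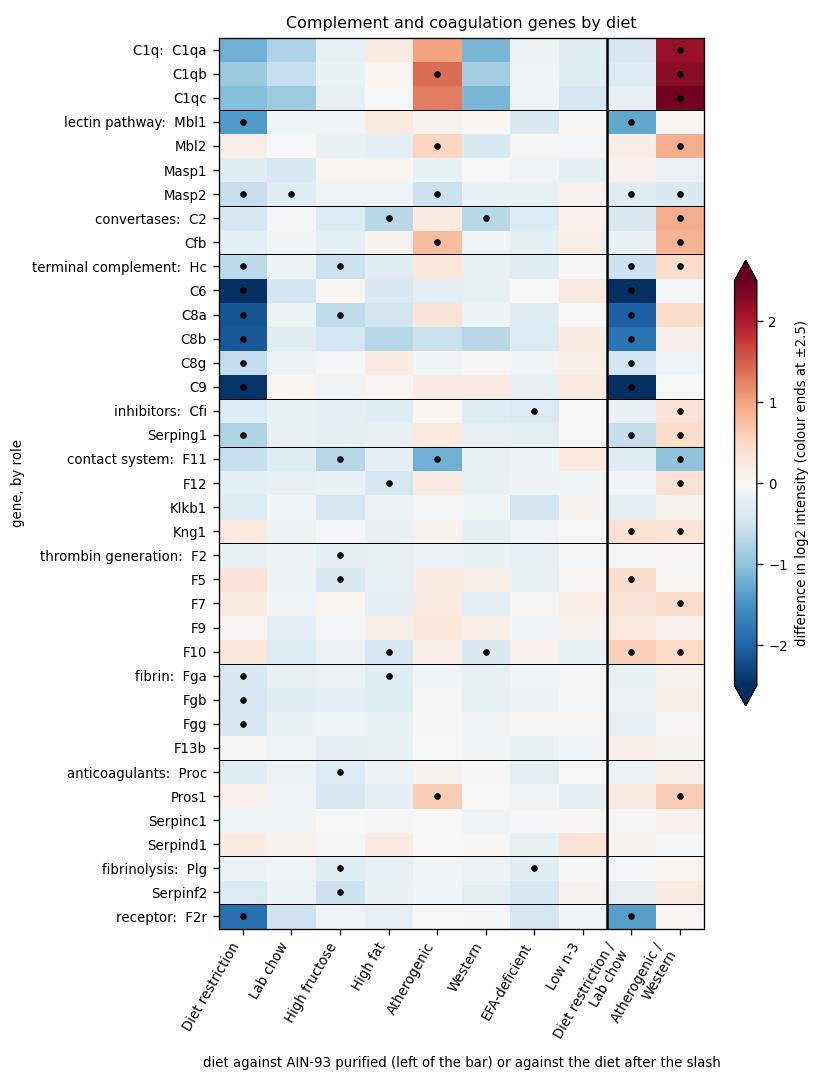
Difference in log2 intensity of each of the 37 measured genes (rows, by role) in 8 diets against AIN-93 and in 2 further comparisons (columns, right of the bar). Red is higher and blue lower in the first-named diet, a dot marks an adjusted p under 0.05, and the 6 terminal complement genes all carry a dot under diet restriction.

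The terminal complement genes fell together under diet restriction. All 6 were lower than on AIN-93 and than on lab chow, with a median difference of -2.13 from AIN-93. C6, the component that joins C5b first, read 6.94, 7.56 and 6.88 in diet-restricted livers and 10.54, 10.44 and 10.81 in AIN-93 livers. This was 9.03% of control (95% CI 5.95 to 13.7, adjusted p = 4.0e-08), and the restricted livers lay close to the detection level. The other 8 diets had C6 means between 10.12 on lab chow and 10.82 on low n-3, and none of their arrays came below 9.74. C9, whose copies form the wall of the pore, read 12.18, 11.70 and 12.04 in diet-restricted livers and 14.56, 14.18 and 14.56 in AIN-93 livers (18.2% of control, 95% CI 14.8 to 22.3, adjusted p = 1.2e-10). C9 means of the other diets ran between 14.24 on EFA-deficient and 14.66 on low n-3, so that diet restriction stood alone.

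C8 is built of an alpha, a beta and a gamma chain from separate genes, and its chains did not fall alike. C8a read 11.55, 11.58 and 11.90 in diet-restricted livers and 13.98, 13.64 and 13.89 in AIN-93 livers (22.4% of control, adjusted p = 1.2e-08). C8b read 9.75, 9.71 and 9.78 in diet-restricted livers and 12.08, 11.52 and 11.96 in AIN-93 livers (23.2% of control, adjusted p = 5.1e-06). C8g, the lipocalin-like gamma chain, read 13.51, 13.22 and 13.25 in diet-restricted livers and 13.93, 13.92 and 13.99 in AIN-93 livers (65.1% of control, adjusted p = 3.5e-05). The 95% CI of C8g, 57.7% to 73.5% of control, lay above those of C8a (17.6 to 28.4) and C8b (16.3 to 33.1), although the difference between chains was not tested. Hc, which encodes C5, read 13.16, 13.24 and 13.27 in diet-restricted livers and 13.84, 13.74 and 14.08 in AIN-93 livers (63.3% of control, adjusted p = 0.0089). In each of the 6 genes every diet-restricted array lay below every AIN-93 array, a pattern that 25.6% of all genes showed in that direction. Without AIN-93 replicate 3 the adjusted p of Hc was 0.057, whereas C6, C8a, C8b, C8g and C9 kept their call under all 16 alternatives.

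**Figure D2:**
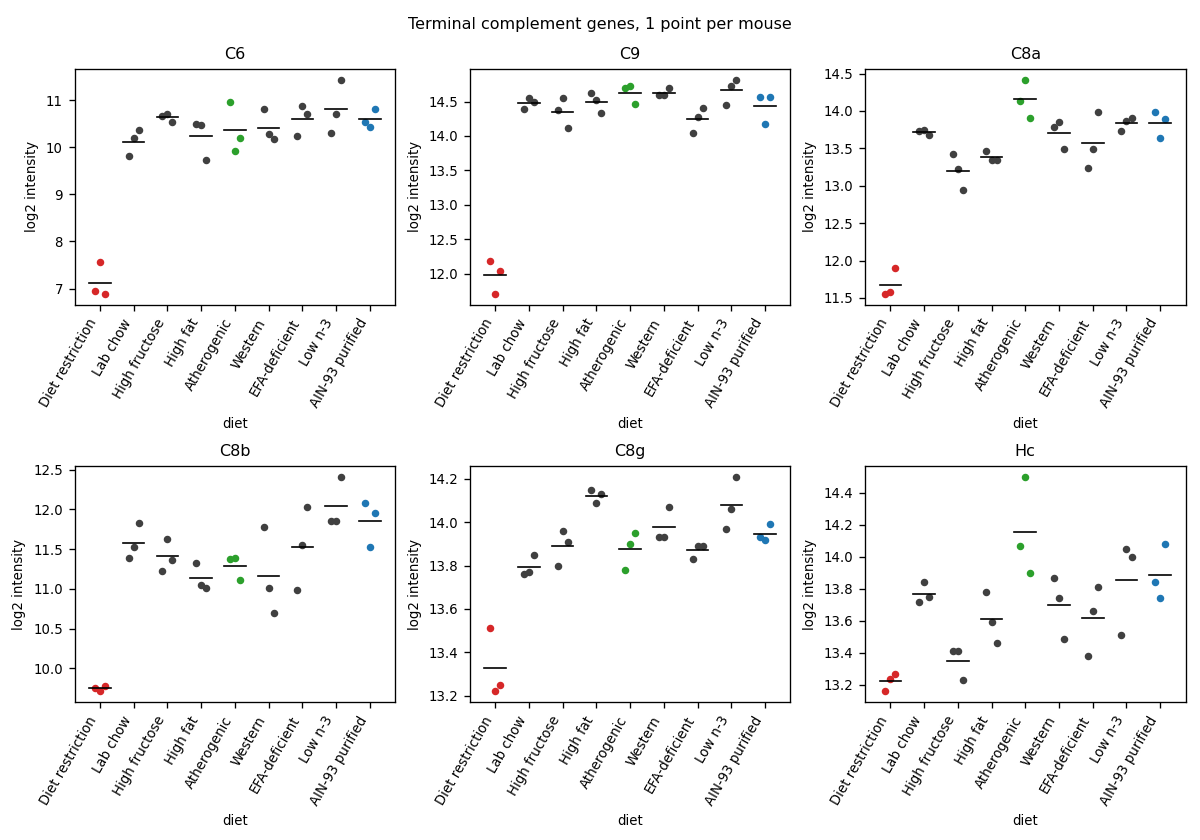
log2 intensity of the 6 terminal complement genes (vertical axes, which do not start at 0) in the 9 diets, 1 point per mouse and a bar for the mean of 3. The 3 diet-restricted livers lie lowest in C6, C9, C8a, C8b and C8g and overlap with high fructose in Hc, with C6 at 6.88 to 7.56 against 9.74 or more in every other liver.

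Against lab chow, the same food given freely, the falls were of similar size. Diet-restricted livers had 12.6% of the chow level of C6 (95% CI 8.29 to 19.1, adjusted p = 7.8e-08), 17.6% of C9, 24.3% of C8a and 28.1% of C8b. C8g was at 72.4% and Hc at 68.7% of chow, both called. Lab chow itself differed from AIN-93 by -0.48 for C6, by 0.05 for C9 and by -0.12 to -0.27 for the other terminal genes, none of which was called. Of the 13 detected hepatocyte markers, 2 were higher and 1 lower in diet-restricted than in AIN-93 livers, against 13.5% and 16.0% of all genes. Relative to lab chow livers 4 were higher and 1 lower, against 19.2% and 17.6% of all genes. The summed level of the 13 markers was 18.54 to 18.70 in diet-restricted livers, 18.48 to 18.50 in lab chow livers and 18.46 to 18.50 in AIN-93 livers. This sum rests mostly on the brightest markers, such as Alb, at 16.40 in diet-restricted and 16.27 in AIN-93 livers. These lie near the top of the array, whose brightest probe read 16.49 to 16.90. The sum thus has little room to rise and says little of the dimmer markers. The marker called lower was Cebpa, a hepatocyte transcription factor, at 9.27 ± 0.08 in diet-restricted livers, 10.33 ± 0.12 in lab chow livers and 10.60 ± 0.18 in AIN-93 livers (SD, n = 3 each, adjusted p = 3.3e-05 and 1.0e-05 against these diets). Pck1 and Tat ran the other way. Pck1 averaged 12.33 ± 0.23 in diet-restricted, 10.81 ± 0.39 in lab chow and 9.69 ± 0.48 in AIN-93 livers. Tat averaged 13.79 ± 0.60, 12.75 ± 0.26 and 11.93 ± 0.46 in the same order. The part of these markers in the falls was not tested.

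On the other diets 3 differences of terminal genes were called, C8a and Hc on high fructose and Hc for the atherogenic against the Western diet. C8a read 13.43, 13.23 and 12.94 in high-fructose livers and 13.98, 13.64 and 13.89 in AIN-93 livers (64.2% of control, adjusted p = 0.016). Hc read 13.41, 13.41 and 13.23 in high-fructose livers, against 13.74 or more in AIN-93 livers (69.0% of control, adjusted p = 0.033). In atherogenic livers Hc read 14.07, 14.50 and 13.90, against 13.87, 13.74 and 13.49 in Western livers (137% of Western, adjusted p = 0.047). The groups nearly met, at 13.90 and 13.87, and the call was kept in 4 of 14 alternatives. C8b ran lower on high fat (-0.72), on Western (-0.69) and on the atherogenic diet (-0.56), although none of these passed the test. C8g means spanned 13.79 on lab chow to 14.12 on high fat outside diet restriction, C8a means 13.20 on high fructose to 14.15 on the atherogenic diet, C8b means 11.13 on high fat to 12.04 on low n-3, and Hc means 13.35 on high fructose to 14.16 on the atherogenic diet. Without diet restriction, neighbours in the order of C6, C9 and C8b differed by no more than 0.19, 0.14 and 0.27, within the within-diet SD of 0.38, 0.18 and 0.32. The largest step exceeded that SD for C8a (0.31, SD 0.21), Hc (0.27, SD 0.20) and C8g (0.11, SD 0.09), and no step was tested. Diet restriction lay 2.99, 2.27, 1.52, 1.38 and 0.46 below the next lowest diet mean for C6, C9, C8a, C8b and C8g. For Hc it lay 0.12 below high fructose, and the arrays of these diets overlapped.

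C8a and C8b are adjacent protein-coding genes in RefSeq (GRCm38.p6), and C6 and C9 are not neighbours of them. The promoters of these 4 genes are shown because they fell most, each from 250 bases before the transcription start to 50 bases from it, in RefSeq sequence of build GRCm38.p6. Capitals mark a match to TTCNNNGAA (STAT), GTTAAT (part of the HNF1 site), CAAAGTCC (HNF4) or TTGCNNAA (C/EBP), searched on both strands. What is called an HNF1 match here and below is thus a match to part of that site.
C6 (chr15:4726960-4727259, plus strand): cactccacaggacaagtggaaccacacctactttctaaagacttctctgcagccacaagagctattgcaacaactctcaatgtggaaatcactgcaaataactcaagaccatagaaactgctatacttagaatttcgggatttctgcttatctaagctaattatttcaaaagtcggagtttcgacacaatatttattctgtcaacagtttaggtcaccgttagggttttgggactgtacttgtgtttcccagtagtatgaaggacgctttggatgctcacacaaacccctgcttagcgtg
C9 (chr15:6445096-6445395, plus strand): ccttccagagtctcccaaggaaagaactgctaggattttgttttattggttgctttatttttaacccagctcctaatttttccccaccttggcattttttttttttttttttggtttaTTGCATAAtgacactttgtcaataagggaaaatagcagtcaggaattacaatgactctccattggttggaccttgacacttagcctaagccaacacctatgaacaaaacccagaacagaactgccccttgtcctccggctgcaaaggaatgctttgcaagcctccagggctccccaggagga
C8a (chr4:104876349-104876648, minus strand): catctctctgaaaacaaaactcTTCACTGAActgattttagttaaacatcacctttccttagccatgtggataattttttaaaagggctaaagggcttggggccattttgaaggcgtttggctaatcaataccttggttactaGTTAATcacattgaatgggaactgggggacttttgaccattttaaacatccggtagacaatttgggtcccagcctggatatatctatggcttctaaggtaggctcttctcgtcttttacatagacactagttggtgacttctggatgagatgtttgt
C8b (chr4:104766067-104766366, plus strand): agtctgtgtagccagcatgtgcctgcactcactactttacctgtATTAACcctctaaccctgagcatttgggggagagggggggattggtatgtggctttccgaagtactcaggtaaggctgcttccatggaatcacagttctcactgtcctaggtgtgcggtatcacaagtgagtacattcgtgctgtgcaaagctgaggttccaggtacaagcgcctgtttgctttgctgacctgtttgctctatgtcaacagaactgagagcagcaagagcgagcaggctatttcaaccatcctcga
Counted from 0 at the start, C8a held a STAT match from -228 to -220 and an HNF1 match from -107 to -102. C8b held an HNF1 match from -206 to -201 on the minus strand, and C9 a C/EBP match from -132 to -125. C6 held no match to the 4 motifs. No motif was common to the 4 promoters.

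The C1q genes, which encode the A, B and C chains of the molecule that opens the classical pathway, were highest on the atherogenic diet. C1qb read 10.69, 10.19 and 10.02 in atherogenic livers and 8.75, 8.89 and 9.08 in AIN-93 livers (262% of control, 95% CI 156 to 441, adjusted p = 0.017). C1qa read 9.78, 9.02 and 8.86 in atherogenic livers and 7.80, 8.33 and 8.50 in AIN-93 livers, and C1qc read 8.89, 8.29 and 7.98 in atherogenic livers and 6.76, 7.12 and 7.47 in AIN-93 livers. The differences of C1qa (1.01, adjusted p = 0.11) and C1qc (1.27, adjusted p = 0.066) did not pass the test, although no atherogenic array overlapped with AIN-93, which 20.6% of all genes showed in that direction. Against the Western diet all 3 were called. C1qa read 7.47, 6.41 and 7.30 in Western livers, so that atherogenic livers had 447% of that level (adjusted p = 5.6e-04). C1qb read 8.29, 7.62 and 8.22 in Western livers, and atherogenic livers had 477% of it (adjusted p = 1.9e-04). C1qc was below the detection level in all 3 Western livers, and was at least 3.34-fold higher in atherogenic livers (adjusted p = 5.1e-04 for the fitted difference). The call of C1qb against AIN-93 was lost without atherogenic replicate 1 (adjusted p = 0.071), without AIN-93 replicate 1 (0.055) and without the filter on low values (0.06).

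Markers of Kupffer cells moved with C1q. Of 19 markers on the array, 12 were detected, with Timd4, Marco, Cd68 and Ccr2 among those that were not. Of the 12 detected markers, 7 were higher in atherogenic than in AIN-93 livers (9.03% of all genes) and 11 higher than in Western livers (11.3% of all genes). Their summed level on the log2 scale was 13.58 to 14.44 in atherogenic livers, 11.87 to 12.29 in Western livers and 12.54 to 13 in AIN-93 livers. Clec4f, a lectin found on Kupffer cells, averaged 9.61 ± 0.31 in atherogenic livers and 8.47 ± 0.36 in AIN-93 livers (SD, n = 3 each), and Cd5l, a secreted macrophage protein, averaged 12.46 ± 0.55 in atherogenic livers and 10.30 ± 0.14 in AIN-93 livers. Cd163, a scavenger receptor of macrophages, was not called in either comparison and averaged 7.52 ± 0.24 in atherogenic livers and 7.46 ± 0.40 in AIN-93 livers. Folr2 had a mean above the detection level on the atherogenic diet alone (7.05, against 4.38 to 6.12 on the other diets). It is among the 12 detected markers only through the diet where it is high, which limits the counts above. The part of these markers in the C1q result was not tested. In bulk liver, more cells of a type and more RNA per cell cannot be told apart, and likewise fewer cells and less RNA per cell. Outside the Kupffer cell list, Lpl rose, at 9.92 ± 1.03 in atherogenic livers and 7.42 ± 0.28 in AIN-93 livers, and is listed with adipocytes, of whose 12 markers only Lpl and Fabp4 were detected.

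Under diet restriction the C1q genes differed between mice. C1qa read 6.68, 7.92 and 6.44 in diet-restricted livers and 7.80, 8.33 and 8.50 in AIN-93 livers, a difference of -1.20 (adjusted p = 0.055). Diet restriction replicate 2 was the high one in C1qb (9.00, against 7.55 and 7.40 in the other restricted livers) and in C1qc (7.21, against 5.75 and 5.17), and it also had the highest sum of Kupffer markers, 12.50 against 11.56 and 11.47. With all arrays 0 of the 3 C1q genes were called lower than AIN-93. Without replicate 2, C1qa (-1.65, adjusted p = 0.0084), C1qb (-1.43, adjusted p = 0.0076) and C1qc (adjusted p = 0.011) were called lower than AIN-93. This array is the highest of its diet in these genes, so leaving it out had to lower the restricted means. The calls without it are therefore no support for a fall. The size of the C1qc difference is not given, because the remaining restricted arrays lay below the detection level. With all arrays, Kupffer markers were called lower under diet restriction for 3 of 12, against 16.0% of all genes, among them Clec4f, at 6.88 ± 0.47 in diet-restricted livers and 8.47 ± 0.36 in AIN-93 livers. Cd163 (7.92 against 7.46) and Slc40a1 (9.47 against 9.17) had higher means than in AIN-93 livers, not called, and the other detected markers lower means. Against lab chow 1 of 12 was called higher and 0 lower, against 19.2% and 17.6% of all genes. The C1q genes lie next to each other in the genome, in the order C1qb, C1qc, C1qa.

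**Figure D3:**
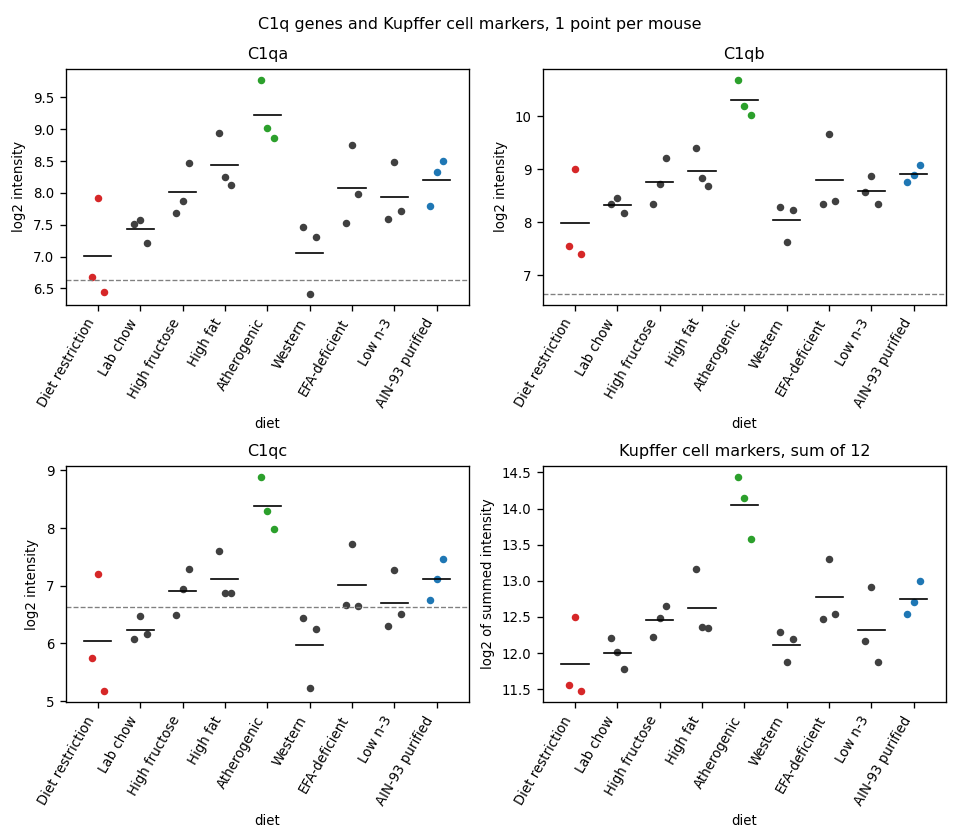
log2 intensity of the 3 C1q genes and log2 of the summed intensity of the 12 detected Kupffer cell markers (vertical axes, which do not start at 0) in the 9 diets, 1 point per mouse, a bar for the mean of 3 and a dashed line at the detection level of 6.64. Atherogenic livers have the highest mean in all 4 plots, and diet restriction replicate 2 lies above the other restricted livers in all 4.

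The lectin pathway genes divided. Mbl1 and Mbl2 encode the mouse mannose-binding lectins A and C, which recognize sugars on microbes. Mbl1 read 11.02, 10.46 and 10.27 in diet-restricted livers and 11.96, 12.01 and 11.99 in AIN-93 livers (37.7% of control, 95% CI 30.6 to 46.5, adjusted p = 9.7e-07), and the lab chow livers read 11.86, 11.88 and 11.92. Mbl1 read 11.51 or more in every liver outside diet restriction, and no restricted liver reached that level. Mbl2 did not follow it, with 13.35, 13.26 and 13.12 in diet-restricted livers and 13.19, 13 and 13.05 in AIN-93 livers (112% of control, 95% CI 92.8 to 135, adjusted p = 0.50). Mbl2 instead rose on the atherogenic diet, with 13.62, 13.65 and 13.60 in atherogenic livers, 12.90, 12.73 and 12.54 in Western livers, and the AIN-93 livers just given. This was 146% of AIN-93 (adjusted p = 0.0089) and 187% of Western (adjusted p = 6.1e-05).

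Masp2, the protease that cleaves C4 and C2 in the lectin pathway, was called lower in 5 comparisons. It read 9.66, 9.51 and 9.48 in diet-restricted livers, 9.52, 9.60 and 9.65 in atherogenic livers, 9.83, 9.83 and 9.88 in lab chow livers, and 10.10, 10.12 and 10.17 in AIN-93 livers. This gave 66.8% of control under diet restriction (adjusted p = 6.5e-05), 68.7% on the atherogenic diet (adjusted p = 1.5e-04) and 82.1% on lab chow (adjusted p = 0.033). The lab chow call was lost in 10 of 16 alternatives. Diet-restricted livers had 81.4% of the chow level (adjusted p = 0.0079), and atherogenic livers 78.1% of the Western level, where Masp2 read 9.83, 9.99 and 10.01 (adjusted p = 0.0046). Its 2 probes differed, however, in which diets moved them. The probe 1420524_a_at fell by 0.90 under diet restriction (adjusted p = 4.0e-04 over all probes) and by 0.17 on lab chow, whereas 1451759_at fell by 0.26 under diet restriction (adjusted p = 0.15), by 0.40 on lab chow and by 0.65 on the atherogenic diet (adjusted p = 6.0e-04). With the probe of highest mean alone, the atherogenic call was lost (-0.44, adjusted p = 0.071).

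Masp1, a related protease whose gene is spliced into several products, was not called in any comparison, and its 3 detected probes went in opposite directions under diet restriction. The probe 1419677_at averaged 11.84 in diet-restricted livers and 11.35 in AIN-93 livers, a rise of 0.48 (adjusted p = 0.04). The probe 1425985_s_at fell by 0.65 (adjusted p = 0.053) and 1438602_s_at by 0.71 (adjusted p = 0.057), and both also ran lower on lab chow, by 0.48 and 0.71. The gene value, their mean, was -0.29 (adjusted p = 0.20), so a direction for Masp1 depends on the probe. Which transcripts these probes match was not examined here.

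**Figure D4:**
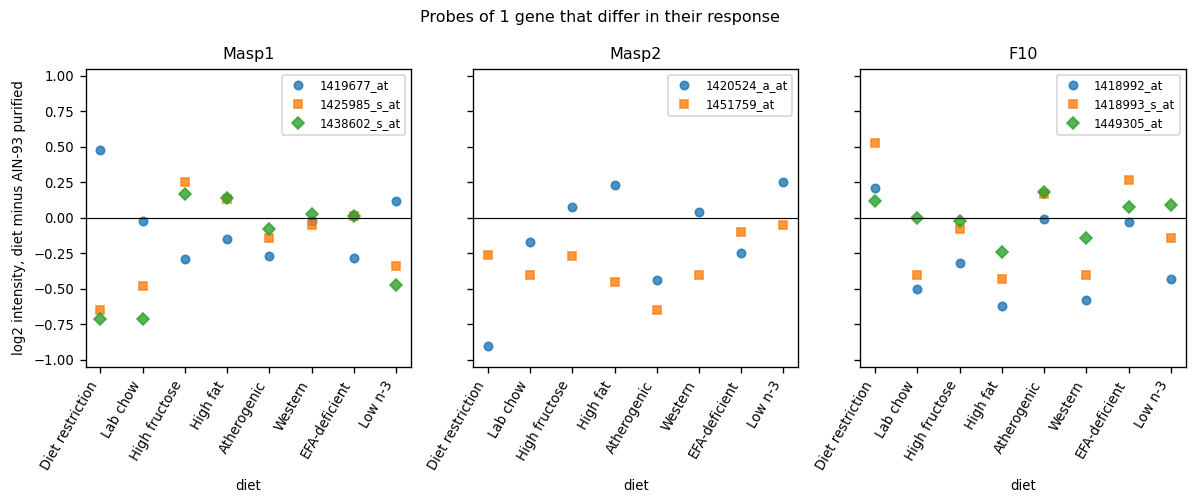
Difference in log2 intensity from AIN-93 in 8 diets (horizontal axis) for each detected probe of Masp1, Masp2 and F10. Under diet restriction 1 probe of Masp1 lies at 0.48 and the others at -0.65 and -0.71, the probes of Masp2 lie at -0.90 and -0.26, and those of F10 at 0.12 to 0.53.

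C2 and Cfb, adjacent genes, encode the catalytic subunits of the classical and the alternative pathway convertases. Cfb read 12.55, 12.81 and 12.53 in atherogenic livers and 11.82, 11.82 and 11.91 in AIN-93 livers (172% of control, 95% CI 139 to 213, adjusted p = 0.0014), and was 183% of the Western level (11.76, 11.84 and 11.68). C2 fell on both other fat-rich diets. It read 9.31, 8.94 and 8.90 in high-fat livers and 9.90, 9.51 and 9.82 in AIN-93 livers (62.1% of control, adjusted p = 0.028). In Western livers it read 9.41, 8.95 and 8.76 (61.5% of control, adjusted p = 0.025), and in atherogenic livers 9.78, 10.21 and 9.83, which was 187% of Western (adjusted p = 0.0028) and 0.20 above AIN-93 in log2 (not called, adjusted p = 0.59). Cfb differed from control by 0.09 on high fat and by -0.09 on Western. The calls of C2 were lost in 6 of 16 alternatives on each of these diets, and those of Cfb in none.

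Of the complement inhibitors, Serping1, the C1 inhibitor, which also blocks factor XIIa and kallikrein, fell under diet restriction. It read 12.86, 12.69 and 12.97 in diet-restricted livers and 13.61, 13.50 and 13.71 in AIN-93 livers (58.7% of control, 95% CI 47.9 to 72.0, adjusted p = 0.001), and 66.3% of the chow level (adjusted p = 0.0024). On the atherogenic diet it read 13.69, 14.30 and 13.56, against 13.45, 13.40 and 13.34 in Western livers (137% of Western, adjusted p = 0.031). Atherogenic replicate 2 was the highest of its diet in Serping1, as in Hc, F7 and F10, and without it the difference of Serping1 from Western was 0.23 (adjusted p = 0.23) and that of Hc 0.29 (adjusted p = 0.26). The same liver was low in stellate cell markers, with Dcn at 10.08, against 11.90 and 11.73 in the other atherogenic livers, Reln at 8.02, against 9.96 and 9.86, and Pdgfrb at 6.17, against 8.35 and 8.10. The summed level of the 8 detected stellate markers was 11.06 to 12.90 in atherogenic and 12.28 to 12.53 in Western livers, and that of the 10 detected endothelial markers 10.69 to 11.67 in atherogenic and 11.29 to 11.58 in Western livers. The part of these markers in the differences from Western was not tested. Cfi, the protease that inactivates C3b and C4b, varied less. It was 79.2% of control on EFA-deficient (adjusted p = 0.049, arrays overlapping) and 128% of Western on the atherogenic diet, where it read 13.85, 13.97 and 13.85, against 13.51, 13.54 and 13.54 in Western livers (adjusted p = 0.022). These Cfi calls were lost in 10 of 16 and in 5 of 14 alternatives.

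The contact system starts coagulation on surfaces, with factor XII (F12), plasma prekallikrein (Klkb1) and high molecular weight kininogen (Kng1) acting on factor XI (F11). F11 showed the largest change of the coagulation enzymes. It read 8.55, 8.40 and 8.63 in atherogenic livers and 9.96, 9.58 and 9.63 in AIN-93 livers (43.6% of control, 95% CI 32.5 to 58.6, adjusted p = 4.9e-04), and Western livers read 9.80, 9.81 and 8.98 (atherogenic at 49.8% of Western, adjusted p = 0.0017). High-fructose livers read 9.08, 9.20 and 8.77 (61.3% of control, adjusted p = 0.031). The neighbouring gene Klkb1 was not called in any comparison, with diet means between 12.56 on EFA-deficient and 13.09 on low n-3.

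F12 and Kng1 changed by less. F12 read 12.10, 11.88 and 11.63 in high-fat livers and 12.36, 12.19 and 12.27 in AIN-93 livers (75.7% of control, adjusted p = 0.045), and was called at 128% of Western in atherogenic livers with an adjusted p of 0.05 after rounding. These F12 calls were lost in 9 of 16 and in 10 of 14 alternatives. Kng1 read 14.57, 14.50 and 14.56 in diet-restricted livers and 14.15, 14.09 and 14.24 in lab chow livers (130% of chow, adjusted p = 0.0011), whereas its rise over AIN-93 did not pass the test (119%, adjusted p = 0.062). Kng1 was also 126% of Western in atherogenic livers (adjusted p = 0.0084).

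Of the 5 genes of thrombin generation, F2, F5, F7, F9 and F10, diet restriction had 0 called against AIN-93 and 2 higher than lab chow, F10 and F5, where 19.2% of all genes were higher. F10 encodes factor X, which activates prothrombin. It read 10.62, 10.69 and 10.69 in diet-restricted livers and 10.20, 9.96 and 10.08 in lab chow livers (150% of chow, 95% CI 127 to 178, adjusted p = 4.8e-04), and 10.41, 10.25 and 10.48 in AIN-93 livers, over which the rise of 0.29 was not called (adjusted p = 0.13). F10 was lower on high fat, with 10.00, 9.95 and 9.90 (74.4% of control, adjusted p = 0.022), and on Western, with 10.18, 9.98 and 9.86 (77.2% of control, adjusted p = 0.046). The high-fat call was lost in 5 of 16 alternatives and the Western call in 10 of 16. Atherogenic livers read 10.39, 10.77 and 10.33, which was 140% of Western (adjusted p = 0.0054). Its brightest probe, 1449305_at, moved least, with a difference from lab chow of 0.11 under diet restriction (adjusted p = 0.59), while 1418992_at (0.71) and 1418993_s_at (0.93) were called.

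F5, the cofactor of factor X, read 12.65, 12.52 and 12.62 in diet-restricted livers and 12.08, 12.20 and 12.17 in lab chow livers (136% of chow, adjusted p = 0.0032), and its difference from AIN-93 was 0.32 (adjusted p = 0.069). High-fructose livers had 78.0% of the AIN-93 level of F5 (adjusted p = 0.04, arrays overlapping). F2, which encodes prothrombin, read 14.40, 14.51 and 14.49 in high-fructose livers and 14.70, 14.71 and 14.71 in AIN-93 livers (84.8% of control, adjusted p = 0.044). F7, which starts coagulation with tissue factor and lies next to F10, was called only against Western, where it read 10.75, 11.49 and 10.79 in atherogenic livers and 10.73, 10.50 and 10.44 in Western livers (adjusted p = 0.049). This call was lost in 9 of 14 alternatives, and without atherogenic replicate 2 the difference was 0.21 (adjusted p = 0.34). F9, factor IX, was not called in any comparison, with diet means between 11.29 on lab chow and 11.78 on the atherogenic diet.

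The 3 fibrinogen chains are encoded by adjacent genes, in the order Fgg, Fga, Fgb, and fell by like amounts under diet restriction. Fga read 15.34, 15.19 and 15.12 in diet-restricted livers and 15.48, 15.62 and 15.65 in AIN-93 livers (77.3% of control, adjusted p = 0.012). Fgb read 15.62, 15.34 and 15.19 in diet-restricted livers and 15.73, 15.72 and 15.94 in AIN-93 livers (75.2% of control, adjusted p = 0.013). Fgg read 15.29, 15.08 and 14.77 in diet-restricted livers and 15.33, 15.42 and 15.50 in AIN-93 livers (77.3% of control, adjusted p = 0.031). Restricted and AIN-93 arrays did not overlap in any of the 3, as in 25.6% of all genes in that direction, but none was called against lab chow. Without AIN-93 replicate 3 the adjusted p was 0.058 for Fga, 0.083 for Fgb and 0.12 for Fgg, and without diet restriction replicate 3 it was 0.056, 0.078 and 0.17. Fga was also lower on high fat, with 15.28, 15.28 and 15.33 (81.7% of control, adjusted p = 0.048), a call lost in 10 of 16 alternatives. The fibrinogen levels lay near the top of the array, whose brightest probe read 16.49 to 16.90. F13b, the carrier subunit of the factor that crosslinks fibrin, was not called and spanned 12.33 to 12.60 over the diets.

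The fibrinogen promoters are shown for Fga and Fgb, which each held a STAT, an HNF1 and a C/EBP match, marked by capitals as above.
Fga (chr3:83025903-83026202, plus strand): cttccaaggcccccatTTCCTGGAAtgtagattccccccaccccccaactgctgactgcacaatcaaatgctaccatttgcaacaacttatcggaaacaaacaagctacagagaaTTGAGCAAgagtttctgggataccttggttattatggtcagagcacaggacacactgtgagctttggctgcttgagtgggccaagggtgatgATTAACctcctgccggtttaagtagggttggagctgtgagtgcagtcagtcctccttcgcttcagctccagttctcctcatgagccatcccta
Fgb (chr3:83049814-83050113, minus strand): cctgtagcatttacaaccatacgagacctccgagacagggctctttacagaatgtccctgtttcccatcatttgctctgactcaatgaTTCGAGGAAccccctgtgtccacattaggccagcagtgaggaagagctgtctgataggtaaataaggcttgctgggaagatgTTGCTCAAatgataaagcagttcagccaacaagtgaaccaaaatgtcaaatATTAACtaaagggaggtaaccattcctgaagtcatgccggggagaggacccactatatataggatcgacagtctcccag
In Fga the STAT match ran from -234 to -226, the C/EBP match from -135 to -128 and the HNF1 match from -43 to -38. In Fgb they ran from -162 to -154, from -80 to -73 and from -29 to -24. The promoter of Fgg held no match. Of the 41 genes, 31 had a promoter in the table, 32 promoters in all. A STAT match was present in 6 of 32, against 8.3% of 32851 promoters of the table, an HNF1 match in 7 of 32, against 7.1%, a C/EBP match in 9 of 32, against 10.8%, and an HNF4 match in 0 of 32, against 1.42%. The matches do not overlap one another in the printed promoters, and TTCNNNGAA reads alike on both strands.

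Among the anticoagulants, Pros1, which encodes protein S, the cofactor of activated protein C, rose on the atherogenic diet. It read 9.61, 9.80 and 9.64 in atherogenic livers, 9.03, 9.10 and 9.08 in Western livers and 8.92, 8.98 and 9.32 in AIN-93 livers (152% of AIN-93, adjusted p = 0.011, and 153% of Western, adjusted p = 0.0063). Without AIN-93 replicate 1 the adjusted p against AIN-93 was 0.053. Proc, protein C itself, read 13.05, 13.11 and 13.08 in high-fructose livers and 13.50, 13.35 and 13.37 in AIN-93 livers (79.7% of control, adjusted p = 0.022). Serpinc1, antithrombin, had the narrowest range of the 37 genes, with diet means between 14.96 and 15.09, which like those of fibrinogen lay near the top of the array. Serpind1, heparin cofactor II, had means between 12.24 and 12.74, and neither serpin was called in a comparison.

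Fibrinolysis is the removal of fibrin by plasmin, which Plg encodes as plasminogen and which the antiplasmin Serpinf2 blocks. Both were lower on high fructose. Plg read 14.36, 14.40 and 14.30 in high-fructose livers and 14.61, 14.59 and 14.75 in AIN-93 livers (81.3% of control, adjusted p = 0.028), and was 81.7% of control on EFA-deficient (adjusted p = 0.032). The EFA-deficient call was lost in 7 of 16 alternatives. Serpinf2 read 12.20, 12.39 and 12.41 in high-fructose livers and 12.88, 12.77 and 12.97 in AIN-93 livers (68.7% of control, adjusted p = 0.017). The 8 genes lower on high fructose were thus C8a, Hc, F11, F5, F2, Proc, Plg and Serpinf2. In 7 of them, F5 being the exception, no array overlapped with AIN-93, but they were picked by their call in this comparison. Among the 37 measured genes, 17 lay below AIN-93 in every array, as did 15.3% of all genes. Each of these 8 calls was lost in at least 4 of the 16 alternatives.

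F2r, the receptor through which thrombin signals to cells, fell under diet restriction with the terminal genes. It read 8.03, 8.54 and 8.05 in diet-restricted livers, 9.72, 9.33 and 9.69 in lab chow livers and 9.94, 10.04 and 10.33 in AIN-93 livers. This was 26.9% of AIN-93 (95% CI 18.9 to 38.2, adjusted p = 1.8e-05) and 38.6% of chow (adjusted p = 1.5e-04). F2r arrays of the high-fructose, high-fat, Western, atherogenic and low n-3 diets lay between 9.70 and 10.33, and those of the EFA-deficient diet at 10.23, 9.96 and 8.84.

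**Figure D5:**
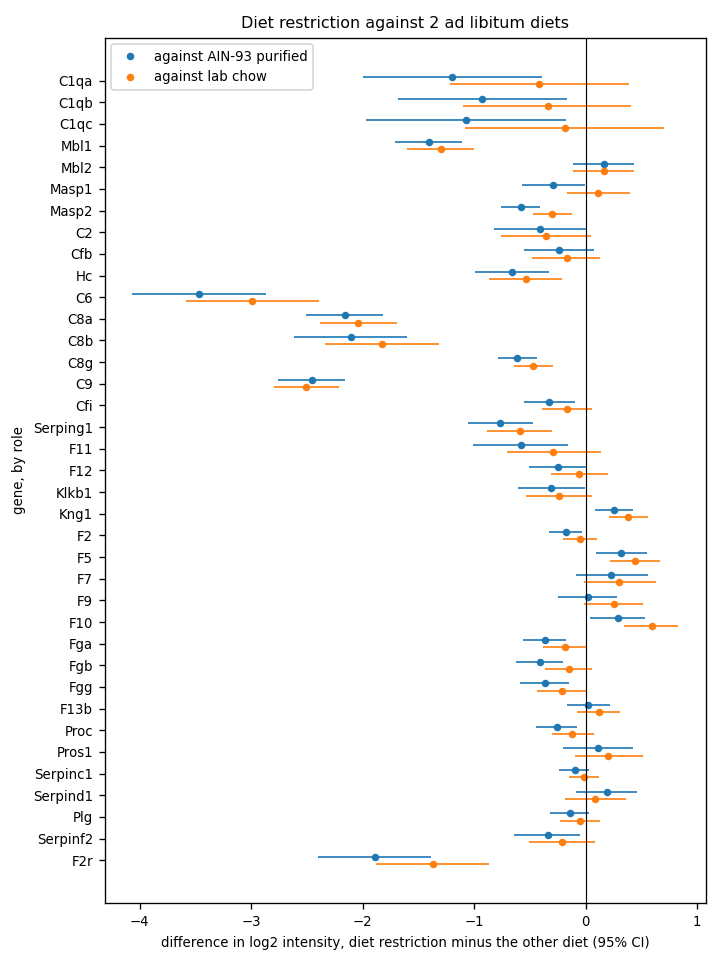
Difference in log2 intensity of diet-restricted livers from AIN-93 (blue) and from lab chow (orange) livers for the 37 measured genes in order of role, with 95% confidence intervals. Both comparisons share the 3 restricted arrays, and C6, C9, C8a, C8b, F2r and Mbl1 lie below -1 in both.

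Of 68 other genes of both cascades, 26 were detected. Under diet restriction 6 of them were lower and 1 higher than AIN-93, against 16.0% and 13.5% of all genes. Tfpi2, a protease inhibitor related to the tissue factor pathway inhibitor, averaged 9.54 ± 0.44 in diet-restricted livers and 11.28 ± 0.23 in AIN-93 livers (adjusted p = 1.1e-06). C4bp, the C4b-binding protein that restrains the classical pathway convertase, averaged 11.82 ± 0.13 in diet-restricted livers and 13.03 ± 0.15 in AIN-93 livers (adjusted p = 2.6e-07). C1s1, a C1 protease, fell by 0.79 and Hrg, histidine-rich glycoprotein, rose by 0.52 on the log2 scale. Against lab chow 9 were lower and 1 higher, against 17.6% and 19.2% of all genes, with Tfpi2 (-1.89) and C4bp (-0.94) among the falls and Hrg the rise (0.60). Ggcx, the enzyme that carboxylates clotting factors, was also called lower (adjusted p = 0.012), at 6.04, 6.77 and 6.49 in diet-restricted livers and 7.01, 7.13 and 7.29 in lab chow livers, and the restricted mean of 6.43 lay below the detection level, so that the size of its fall is uncertain.

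On the atherogenic diet Cfp, properdin, which stabilizes the alternative convertase, averaged 7.73 ± 0.46, against 6.47 ± 0.32 in AIN-93 livers (SD, n = 3 each). Its mean passed the detection level on this diet alone. Cfp thus entered the test only through the diet where it is high, and its call (adjusted p = 0.014) is no support for a rise. The size of the difference from AIN-93 is uncertain. Against Western livers, which all lay below the detection level, it was at least 2.12-fold higher, with the same limit. Clu, clusterin, an inhibitor of terminal complement, was 0.54 higher than AIN-93 (adjusted p = 2.1e-04) and 0.41 higher than Western. Vsig4, a complement receptor of Kupffer cells that is also on the marker list, was 2.03 higher than Western, and Serpina1b and Serpina1c were each 0.26 lower. Cd59a, which blocks the membrane attack complex on the cell's own surface, was 0.44 higher on high fat (adjusted p = 0.0077) and 0.57 higher on Western (adjusted p = 7.7e-04) than on AIN-93, and 0.59 lower on the atherogenic diet than on Western. C1ra (-0.60) and C1s1 (-0.47) were lower on high fat, Cpn2 (-0.46) and C1s1 (-0.44) on high fructose, and Cpn1, the catalytic chain of the carboxypeptidase that inactivates anaphylatoxins, was 0.88 higher on EFA-deficient (adjusted p = 2.3e-04). No other gene of this list was called on lab chow or low n-3.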

How the data were processed

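Liver RNA was hybridized to Affymetrix mouse arrays, 1 per mouse. The authors processed the arrays with GCRMA and deposited log2 intensities, which were used unchanged. The labels also name limma, and versions are not given in the sources used here. Probes with a mean over log2(100) in any diet entered the analysis, and the gene value is the average of such probes listing that symbol alone. Diets were compared with AIN-93 in limma (version 3.58.1, under R 4.3.3 with data.table version 1.17.8 and multcomp 1.4.28) across the 27 arrays. Benjamini-Hochberg adjustment ran over 6478 genes by 8 diets jointly, with a threshold of 0.05, and separately for each of the 2 comparisons without AIN-93. The fit was tested on simulated data.

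Genes and lists were chosen with earlier results of these data known. Every measured gene is named, and a called gene has its array values in the comparison of its largest change. Other genes of both cascades were limited to the 3 largest changes each way per comparison. Cfd values, planned for all diets, could not be given because no probe lists it alone. Gene names came from the platform annotation, and all 51 probes of the 37 genes had an Entrez identifier with the same RefSeq symbol. Promoters came from RefSeq. Alternatives changed adjustment, filter, arrays fitted, weights, scaling, probe choice, replicate block and arrays left out, and added Dunnett's test. Plots and counts were made in Python 3.11.15 (pandas 2.3.3, numpy 2.4.6, matplotlib 3.10.9).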

Additional observations from a re-analysis of the deposited data

How the results depend on the processing

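Of 65 calls in the 10 comparisons, 30 held under every alternative run, 35 were lost under at least 1 and 0 reversed. Calls that held under all were 9 of 13 under diet restriction, 11 of 13 against lab chow, 3 of 6 on the atherogenic diet and 7 of 16 for atherogenic against Western, and 0 of the calls on lab chow, high fructose, high fat, Western and EFA-deficient. Masp1, not called, turned to 0.48 under diet restriction with the probe of highest mean. Causes were not tested beyond what each setting changes. The counts below are of the measured complement and coagulation genes, without the share of all genes called under the same setting. A setting that calls more or fewer genes on the whole array can move these counts too, so they show no change particular to these genes.

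With p adjusted within each diet, 20 genes were called under diet restriction, 1 on Western and 0 on lab chow, high fructose and EFA-deficient. Without a filter the counts were 5 on high fructose, 1 on high fat and 0 on Western. With only the arrays of the 2 diets they were 7 for atherogenic against Western, 1 on high fat and 0 on lab chow, high fructose, Western and EFA-deficient. Array weights gave 27 under diet restriction, 11 on high fat, 8 on Western, 7 on EFA-deficient, 6 on lab chow and 1 on low n-3. Centred arrays gave 3 on high fructose, 2 on high fat, 1 on Western, 1 on EFA-deficient and 0 on lab chow, and quantile normalization 5 on high fructose and 1 on EFA-deficient. The probe with the highest mean gave 2 on high fat, 1 on Western, 1 on EFA-deficient and 0 on lab chow. Dunnett's test gave 5 on Western and 5 on EFA-deficient. Same-numbered arrays correlated between -0.27 and 0.41 (median 0.0032), and no label ties a number to a litter or batch, so the numbers were not taken to pair samples, although 17 of 27 arrays were nearest to their own number, a hint from the data. With replicate number as a block 1 gene was called on Western and 13 for atherogenic against Western.

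With each array left out in turn, counts ranged between 0 and 0 on lab chow, 1 and 7 on high fructose, 0 and 4 on high fat, 0 and 5 on Western, 4 and 6 on the atherogenic diet, 0 and 7 on EFA-deficient, 0 and 0 on low n-3, 9 and 16 under diet restriction, 13 and 15 against lab chow, 10 and 16 for atherogenic against Western, and 28 and 33 for any difference among diets. On high fructose 1 call was left without AIN-93 replicate 3 or high fructose replicate 1, and 2 without AIN-93 replicate 1 or high fructose replicate 3. For atherogenic against Western 10 were left without Western replicate 3 or atherogenic replicate 2. On EFA-deficient leaving out replicate 3 gave 7, on Western leaving out replicate 1 gave 5, and every array left out ended the call on lab chow.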
